A study of Saccharomyces cerevisiae with 4 samples.

Results

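The yeast genes described here encode 9 NADPH-dependent enzymes that reduce aldehydes, ketones or quinones: GRE2, ARI1, GRE3, GCY1, YPR1, ARA1, YJR096W, YDL124W and ZTA1. They were taken by name from 5449 Saccharomyces cerevisiae genes measured on Affymetrix arrays, with the brightest probe set standing for a gene that had several. All 9 were measured, each by 1 probe set, and all were above background on all 4 arrays. Allyl alcohol samples came from cells of strain W1588-4c treated with 0.4 mM allyl alcohol for 3 h, and untreated samples from cells of the same strain left without it. There were 2 arrays in each group, described by the submitters as independent experiments. All cultures were haploids of mating type a that carried RAD5+ together with the alleles ura3-1, trp1-1, leu2-3, 112, his3-11,15, can1-100 and ade2-1, and were grown at 30 °C in synthetic complete medium (2% glucose) until the optical density was near 1. The sources used here do not say how long untreated cultures grew on after that point, so exposure and any difference in culture time cannot be told apart.

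Allyl alcohol is oxidised in yeast by alcohol dehydrogenases to acrolein, a reactive unsaturated aldehyde. Aldo-keto reductases, short-chain dehydrogenases and zeta-crystallin-type quinone reductases use NADPH to turn reactive carbonyls into alcohols or hydroquinones. Several of the yeast enzymes also reduce sugars, methylglyoxal or the branched-chain aldehydes of amino acid breakdown, and some are known as general stress genes. The comparison asks whether transcripts of such enzymes differ after exposure to the alcohol.

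Values are RMA signals on the log2 scale, in which 1 unit is a 2-fold difference. Background was the 95th percentile, per array, of the 1746 probe sets named for genes outside S. cerevisiae, and lay between 5.28 and 5.64. The reductase genes had signals between 10.53 and 13.91, at least 4.90 above it, while the brightest probe set on any array had 14.75. Across the 5449 genes, arrays of the same label were less alike than certain arrays of different labels. Pearson's r across genes (genes are not independent replicates) was 0.740 between the allyl alcohol arrays and 0.757 between the untreated arrays. It was 0.991 between allyl alcohol replicate 1 and untreated replicate 2, and 0.996 between allyl alcohol replicate 2 and untreated replicate 1. The files do not settle whether labels of 2 samples were exchanged, which was not tested and would change what each group mean and difference below stands for. Samples are therefore called by their labels, and each direction between groups is that of the labels. In bulk RNA, fewer cells that express a gene and less of its RNA per cell cannot be told apart.

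By the labels, limma called none of the 9 genes between allyl alcohol and untreated samples. The share of all 5449 genes called at an adjusted p of 0.05 was 0%, none reached an unadjusted p of 0.05, and the lowest unadjusted p was 0.218. Evenly spread p-values would put some genes under 0.05, so those of this fit run high. Its error term holds the large differences between arrays of the same label. The absence of a call is therefore no evidence that a gene was unchanged. Group means of the 9 genes differed by log2 values between -0.42 and 0.13, with a median of -0.11, against a median of -0.02 for all genes. The mean was lower in allyl alcohol samples for 7 of them and higher for 2, while it was lower for 58.0% of all genes. In this fit, which has no block, the 95% intervals of these differences had half-widths between 0.90 and 2.54. With 2 arrays in each group, the lowest p of an exact two-sided permutation test is 0.333.

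**Figure D1:**
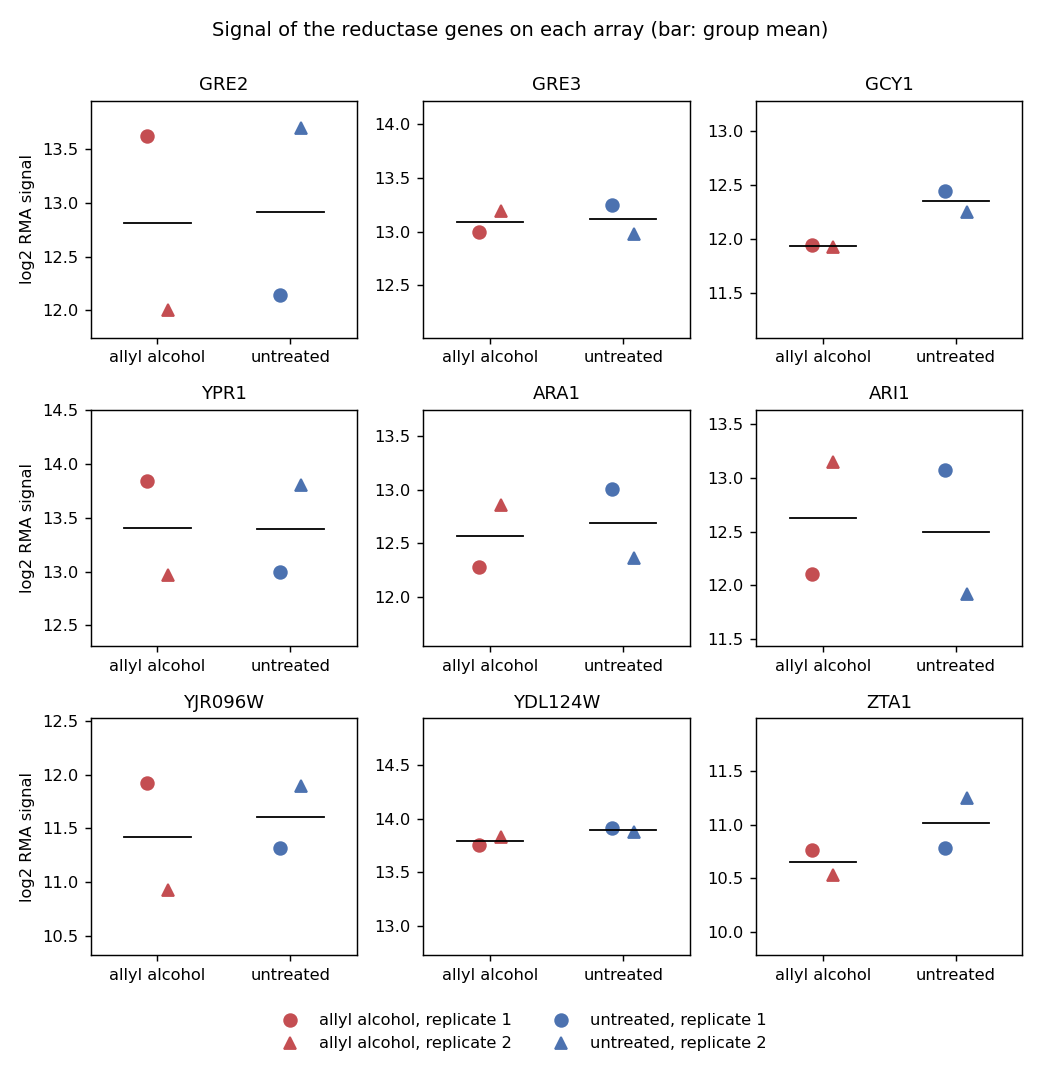
Each panel plots the log2 RMA signal of 1 reductase gene on the 4 arrays, with circles for replicate 1, triangles for replicate 2 and a black bar for each group mean; panels have different positions on the vertical axis but the same span. GRE2, YPR1 and YJR096W were high on allyl alcohol replicate 1 and untreated replicate 2, ARI1 and ARA1 were high on the other two arrays, and the groups did not overlap for GCY1, ZTA1 and YDL124W.

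GCY1, an aldo-keto reductase that can act as a glycerol dehydrogenase, had the largest difference by label among the 9. Its log2 signal was 11.94 and 11.92 on allyl alcohol replicates 1 and 2, against 12.44 and 12.25 on untreated replicates 1 and 2. Both allyl alcohol arrays were below both untreated arrays, and the 2 allyl alcohol arrays were nearly equal. The group means were 11.93 ± 0.01 in allyl alcohol and 12.35 ± 0.13 in untreated samples (SD, n = 2 each), which differed by -0.42 on the log2 scale (standard error 0.32, 95% interval from -1.33 to 0.49). The adjusted p in limma was 1, and the exact two-sided permutation p was 0.333, the lowest this design allows. Leaving out each array in turn gave -0.51 to -0.32.

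ZTA1, the yeast zeta-crystallin homologue and a quinone reductase, had a small difference by label that was uneven between replicate numbers. Its signal was 10.77 and 10.53 on allyl alcohol replicates 1 and 2, and 10.78 and 11.24 on untreated replicates 1 and 2. Allyl alcohol replicate 1 and untreated replicate 1 differed by only -0.01, so the separation of the groups rested on the replicate 2 arrays, which differed by -0.71. The difference of the means was -0.36, with a standard error of 0.36 and an adjusted p in limma of 1. It was -0.13 without untreated replicate 2 and -0.59 without untreated replicate 1.

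YDL124W, an aldo-keto reductase known to act on alpha-keto amides and alpha-keto esters, was the steadiest member. Its signal was 13.75 and 13.83 in allyl alcohol and 13.91 and 13.88 in untreated samples. The groups did not overlap, but all 4 arrays lay within 0.16. The difference of the means was -0.10, with a 95% interval from -0.998 to 0.79, an adjusted p in limma of 1 and an exact permutation p of 0.333. Over all genes, the allyl alcohol arrays lay below the untreated arrays without overlap for 3.34% of genes and above them for 1.89%. Among the reductase genes the corresponding counts were 3 of 9 and 0 of 9, which is a description of 9 chosen genes and not a test. With array medians subtracted, the groups of YDL124W overlapped, so the count of 3 depends on the scaling.

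**Figure D2:**
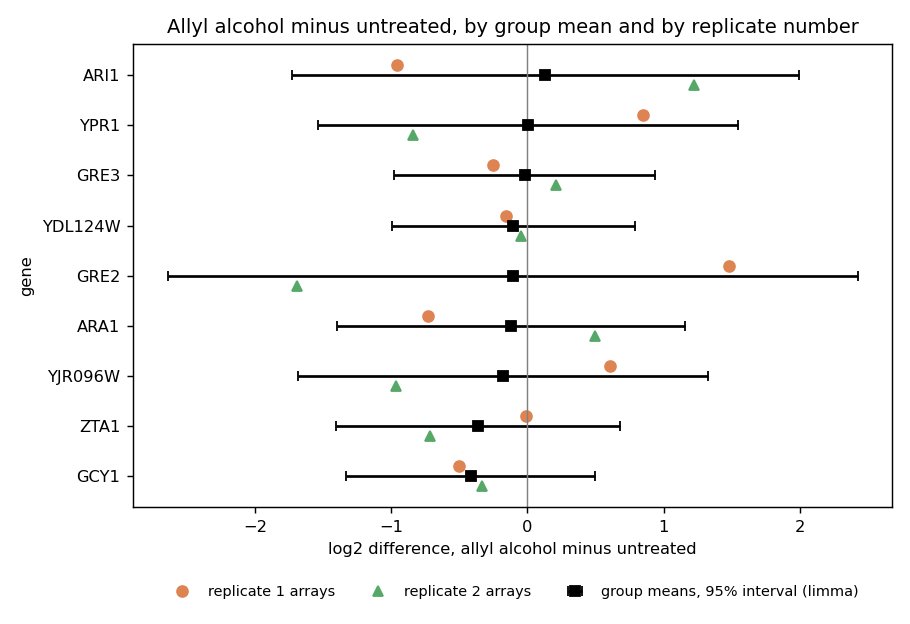
The horizontal axis is the log2 difference, allyl alcohol minus untreated; black squares with bars give the group means and their 95% interval in limma, and circles and triangles give the differences between the replicate 1 arrays and between the replicate 2 arrays. All 9 intervals include 0. GCY1, ZTA1 and YDL124W have both circles and triangles at or below 0, whereas the other 6 genes have them on opposite sides.

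GRE2 and ARI1 belong to the short-chain dehydrogenase superfamily and are close relatives; GRE2 encodes a methylglyoxal and aldehyde reductase, and ARI1 an aldehyde reductase of broad range. GRE2 had 13.62 and 12.00 on allyl alcohol replicates 1 and 2, against 12.14 and 13.69 on untreated replicates 1 and 2. Each group held a high and a low array. The means were 12.81 ± 1.15 in allyl alcohol and 12.92 ± 1.10 in untreated samples (SD, n = 2 each), a difference of -0.11 (standard error 0.88, adjusted p in limma 1). ARI1 had the opposite arrangement, with 12.11 and 13.15 in allyl alcohol and 13.07 and 11.92 in untreated samples. Its high arrays were allyl alcohol replicate 2 and untreated replicate 1, the low arrays of GRE2, and its group means differed by 0.13 (standard error 0.65, adjusted p in limma 1).

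The difference between arrays of the same label, replicate 2 minus replicate 1, was -1.62 inside allyl alcohol and 1.55 inside untreated for GRE2, or 3.08-fold and 2.93-fold. For ARI1 it was 1.04 and -1.15, or 2.05-fold and 2.22-fold. These compare single arrays and carry no test. Inside allyl alcohol 2 of the 9 genes, and inside untreated the same 2, GRE2 and ARI1, were at least 2-fold apart, against 40.8% and 38.0% of all genes. With the 2-fold difference required inside both labels, 18.6% of all genes were higher on allyl alcohol replicate 1 and untreated replicate 2, the arrangement of GRE2, and 15.8% were higher on allyl alcohol replicate 2 and untreated replicate 1, that of ARI1. Of the 9 genes, 1 was in each arrangement, which sets the reductase genes apart in neither. No gene of the 5449 was at least 2-fold apart inside both labels with the same replicate number higher in both.

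By replicate number, the sign of the comparison turned for both genes. For GRE2 the difference allyl alcohol minus untreated was 1.48 between the replicate 1 arrays and -1.70 between the replicate 2 arrays, and for ARI1 it was -0.96 and 1.23. A difference of at least 2-fold was seen for 1 of the 9 genes between the replicate 1 arrays and for 2 between the replicate 2 arrays, against 39.5% and 39.7% of all genes. The differences between group means of -0.11 for GRE2 and 0.13 for ARI1 therefore do not show that these transcripts were level across the arrays.

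**Figure D3:**
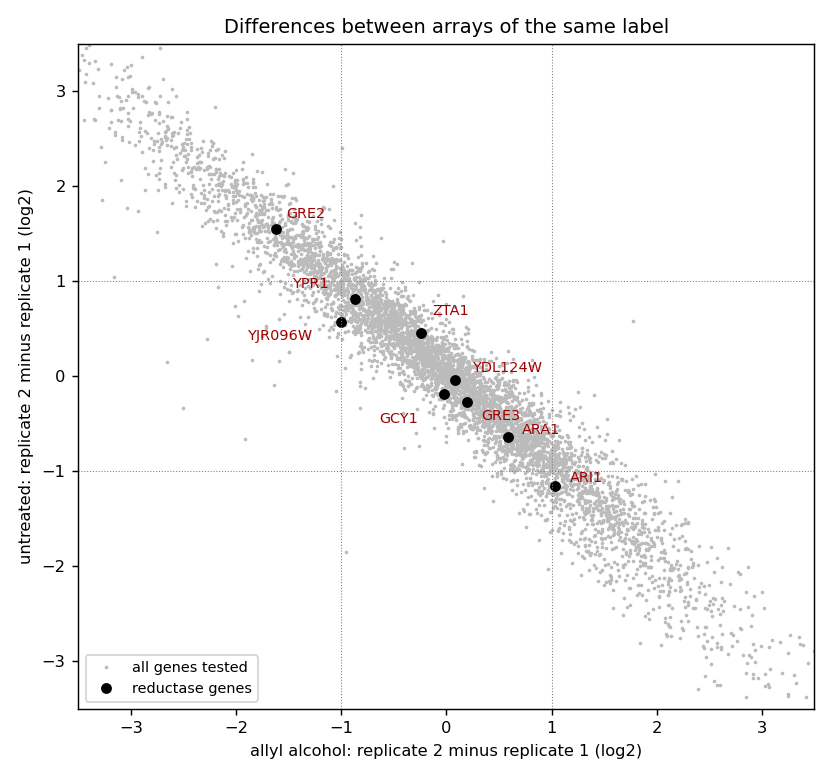
Each point is a gene, with the log2 difference replicate 2 minus replicate 1 inside allyl alcohol on the horizontal axis and inside untreated on the vertical axis; grey points are all genes tested, of which 106 lie outside the plotted limit of 3.5, black points the 9 reductase genes, and dotted lines mark 2-fold. The points run along a falling diagonal, with GRE2 at the upper left, ARI1 at the lower right and GRE3, GCY1 and YDL124W near the centre.

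Among the aldo-keto reductases, YPR1 and YJR096W stood like GRE2 and ARA1 like ARI1, by smaller amounts. YPR1, which reduces branched-chain aldehydes and is the whole-genome duplication paralogue of GCY1, had 13.84 and 12.97 on allyl alcohol replicates 1 and 2 and 12.99 and 13.81 on untreated replicates 1 and 2. Its 2 group means, 13.41 and 13.40, differed by 0.005 on the log2 scale (standard error 0.54). Inside the labels it differed by -0.87 and 0.81, where GCY1 differed by -0.02 and -0.19. GCY1 was the 1 member whose difference had the same sign inside both labels, a sign that turned inside allyl alcohol (0.015) when array medians were subtracted. Opposite signs were seen for the other 8 members and for 93.6% of all genes.

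YJR096W, an aldo-keto reductase active on pentoses, had 11.92 and 10.92 in allyl alcohol and 11.31 and 11.89 in untreated samples. It differed by -0.998 inside allyl alcohol, just short of 2-fold, and by 0.58 inside untreated. ARA1, the NADP-dependent arabinose dehydrogenase, had 12.28 and 12.86 in allyl alcohol and 13.01 and 12.37 in untreated samples. The high arrays were allyl alcohol replicate 2 and untreated replicate 1, with differences of 0.58 and -0.64 inside the labels. The differences of the group means were -0.18 for YJR096W and -0.12 for ARA1, with standard errors of 0.53 and 0.45 and adjusted p in limma of 1 for both.

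GRE3, the aldose reductase that turns xylose into xylitol and also reduces methylglyoxal, differed little among arrays. Its signal was 13.00 and 13.19 in allyl alcohol and 13.25 and 12.98 in untreated samples. All arrays lay within 0.27, with means of 13.09 ± 0.14 in allyl alcohol and 13.11 ± 0.19 in untreated samples (SD, n = 2 each), which differed by -0.02 (standard error 0.33, adjusted p in limma 1). The 2 members best known for methylglyoxal reduction, GRE2 and GRE3, spanned 1.70 and 0.27 over the same 4 arrays. The median span of all genes was 0.92, and that of the 9 reductase genes was 0.73, from 0.16 for YDL124W to 1.70 for GRE2. Among all genes, the span of GRE2 was at the 78.6th percentile, ARI1 at the 63.4th, GRE3 at the 9.93rd and YDL124W at the 3.14th.

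The variation of a gene over the 4 arrays was split into the part between labels, the part between replicate numbers and the part in which the effect of the number depends on the label. For GCY1, 90.6% of the sum of squares lay between labels, for YDL124W 73.2% and for ZTA1 49.5%, although the whole span of YDL124W was small. The part that depends on both held 99.9% for YPR1, 99.5% for GRE2, 98.3% for ARI1, 96.2% for GRE3, 96.1% for ARA1 and 89.0% for YJR096W. It was the largest part for 6 of the 9 genes and for 90.6% of all genes, and its median over all genes was 96.3%. The part between labels was the largest for 5.23% of all genes. The replicate number alone held at most 6.35% for any of the 9 genes.

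**Figure D4:**
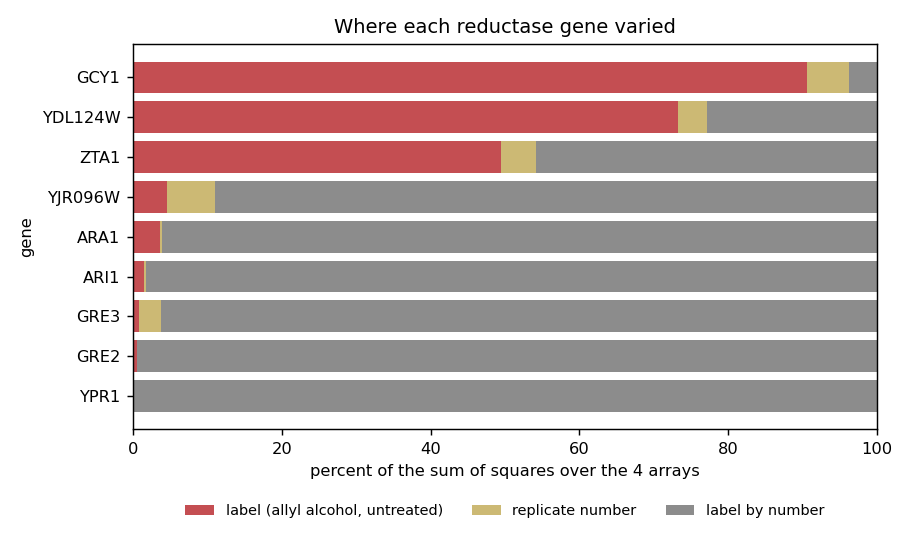
Bars divide each gene's sum of squares over the 4 arrays, in percent, into label, replicate number and label by number. The label part fills most of the bar for GCY1 and YDL124W and about as much as label by number for ZTA1, and label by number fills nearly all of the bar for the other 6 genes.

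Some of the markers of mating type examined also differed at least 2-fold between arrays of the same label, in both labels. All 7 a-cell markers and all 4 alpha-cell markers were above background on all arrays, as were 97.4% to 99.4% of all genes on an array, so passing it does not show that alpha-cell genes were expressed in this strain labelled MATa. The summed signal of the a-cell markers, as log2, was 13.78 and 15.37 on allyl alcohol replicates 1 and 2 and 15.41 and 13.62 on untreated replicates 1 and 2. That of the alpha-cell markers was 12.57 and 11.04 on allyl alcohol replicates 1 and 2, and 11.12 and 12.52 on untreated replicates 1 and 2. SAG1 was the brightest of the 4 on each array, with 12.05 and 9.57 in allyl alcohol and 9.74 and 12.00 in untreated samples. At least 2-fold apart inside both labels were 4 of the 7 a-cell markers, all high where ARI1 was high, against 15.8% of all genes. So was 1 of the 4 alpha-cell markers, SAG1, which was high where GRE2 was high, against 18.6% of all genes. Opposite signs inside the labels were seen for 93.6% of all genes. By sign alone, 6 of the 7 a-cell markers were high where ARI1 was high and 3 of the 4 alpha-cell markers where GRE2 was high. The exceptions were the alpha-cell marker STE3, which differed by 0.45 inside allyl alcohol and -0.42 inside untreated, and the a-cell marker ASG7, which differed by -0.22 and -0.24 inside the labels. Poly-A control probe sets for Bacillus transcripts report on RNA spiked into the labelling reaction. They went in the direction of GRE2, with median differences of -1.10 inside allyl alcohol and 0.85 inside untreated. The medians of the hybridisation control probe sets were smaller, -0.14 inside allyl alcohol and 0.20 inside untreated. For ACT1, the 3 prime minus the 5 prime signal lay between 0.18 and 0.27 on the 4 arrays. The part of these differences in the values of the reductase genes was not tested.

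Related genes were read from lists chosen for function, with results of these data already known. In each list below, counts of genes that differed at least 2-fold inside both labels stand against 18.6% of all genes in the arrangement of GRE2 and 15.8% in that of ARI1, and say nothing particular to a list. Of 22 measured genes for other carbonyl and quinone reductases, 0 were called between labels in limma, 6 were at least 2-fold apart inside both labels in the arrangement of GRE2, 3 in that of ARI1, and 13 were not. The median difference inside the labels was -0.45 in allyl alcohol and 0.49 in untreated samples, against medians over all genes of 0.001 and 0.04. YLR460C and YCR102C, both of the medium-chain family to which ZTA1 also belongs, were far apart. YLR460C had 13.25 and 7.15 on allyl alcohol replicates 1 and 2 and 7.33 and 13.53 on untreated replicates 1 and 2. YCR102C had 12.53 and 8.26 in allyl alcohol and 8.04 and 12.70 in untreated samples. Both were high on the arrays where GRE2 was high, and they differed 69.0-fold and 19.3-fold inside allyl alcohol and 73.3-fold and 25.3-fold inside untreated, where ZTA1 differed 1.18-fold and 1.38-fold. ADH7, an NADPH-dependent cinnamyl alcohol dehydrogenase, differed 3.83-fold and 4.24-fold in the same arrangement.

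The closest relatives of GRE2 and ARI1 also split. YGL039W had 9.02 and 10.34 in allyl alcohol and 10.43 and 9.32 in untreated samples, high where ARI1 was high. YDR541C had 9.60 and 9.45 in allyl alcohol and 9.42 and 9.81 in untreated samples, and was not 2-fold apart in either. These 2 genes were named after their values were seen. Whether probe sets of these related genes share signal was not tested.

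Of the 19 genes for NADPH supply, 4 were in the arrangement of GRE2, 2 in that of ARI1 and 13 not 2-fold apart in both labels, close to the 18.6% and 15.8% of all genes. NQM1, a transaldolase paralogue, differed 8.57-fold inside allyl alcohol and 6.45-fold inside untreated, high with GRE2. RKI1, ribose-phosphate isomerase, differed 8.11-fold and 5.43-fold, high with ARI1. SOL4, a lactonase-like gene of the pentose phosphate pathway, differed 3.77-fold and 5.62-fold, also high with ARI1. Genes for glyoxalases and the Hsp31 family, which handle methylglyoxal by routes that do not need NADPH, had 2 of 5 in the arrangement of GRE2, SNO4 and HSP31, and 1, GLO2, in that of ARI1.

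Of 10 genes for glycerol and dihydroxyacetone metabolism, in which GCY1 can act, 2 stood like GRE2 and 2 like ARI1. The dihydroxyacetone kinase gene DAK2 differed 6.10-fold inside allyl alcohol and 5.80-fold inside untreated. GPP1 and GPP2, the glycerol phosphatases, differed 4.60-fold and 4.97-fold inside allyl alcohol and 4.28-fold and 4.98-fold inside untreated, both in the arrangement of ARI1. GCY1 itself differed 1.01-fold and 1.14-fold. GCY1 is also known to respond to galactose, and of 6 measured galactose genes 2, GAL2 and GAL7, stood like GRE2 and 0 like ARI1. The other 4, GAL1, GAL3, GAL10 and GAL80, were not 2-fold apart inside both labels.

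Of 18 stress regulators, 6 stood like GRE2 and 0 like ARI1, against 18.6% and 15.8% of all genes. YAP1, the oxidative stress factor, had 12.51 and 10.71 on allyl alcohol replicates 1 and 2 and 10.87 and 12.29 on untreated replicates 1 and 2, high on the arrays where GRE2 was high. MSN4, a general stress factor, had 9.99 and 10.91 in allyl alcohol and 11.29 and 10.30 in untreated samples, just short of 2-fold in the arrangement of ARI1. MSN2, its paralogue, and STB5, an activator of NADPH-producing genes, differed by at most 0.33 inside either label. The drug resistance regulator YRR1 differed 13.5-fold inside allyl alcohol and 12.9-fold inside untreated. Among 17 general stress effectors 4 stood like GRE2, among them GRE1 with 2.60-fold in each label, and 2 like ARI1. In all these lists limma called 0 genes between labels.

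**Figure D5:**
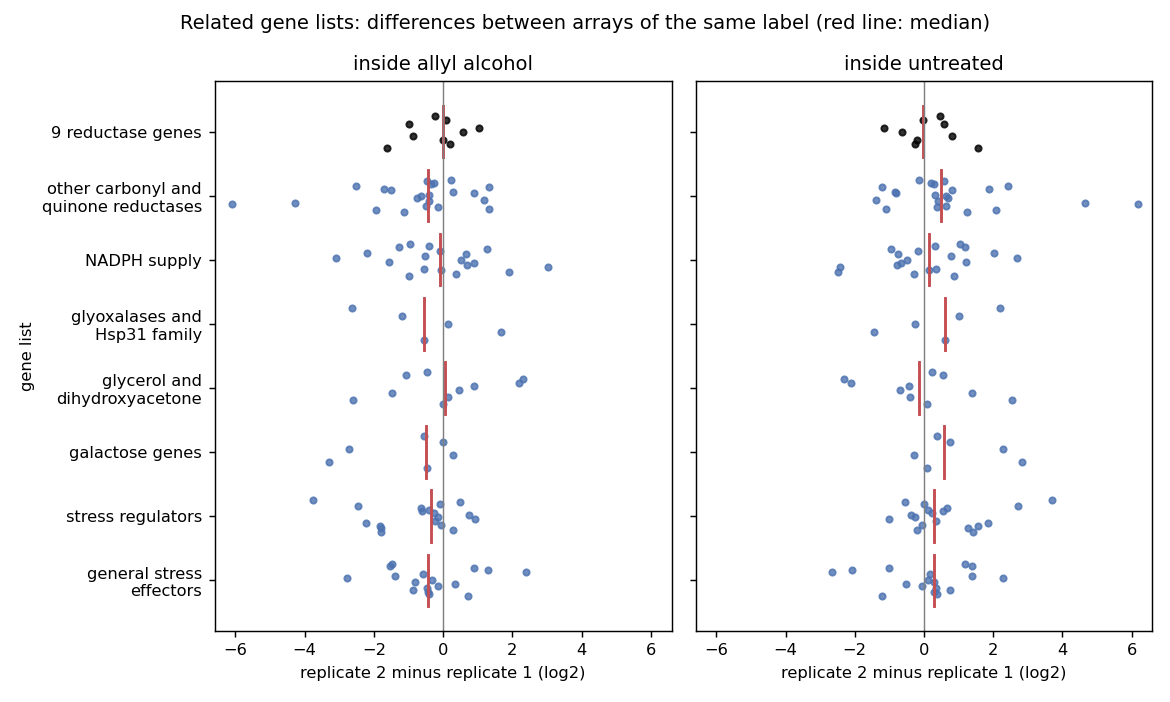
Points are genes, placed by the log2 difference replicate 2 minus replicate 1 inside allyl alcohol (left) and inside untreated (right), in rows for the 9 reductase genes and 7 related lists, with the list median as a red line. The reductase genes lie between -1.62 and 1.04 on the left and between -1.15 and 1.55 on the right, and YLR460C and YCR102C lie farthest out among the other reductases.

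Likeness of pattern was measured as the Euclidean distance between log2 values centred over the 4 arrays, and the 2 nearest of all other genes were taken for each member. Nearest to GRE2 were YNR014W at 0.01 and YNL034W at 0.03, and nearest to YPR1 were UBA3 at 0.02 and HEM4 at 0.03. ARI1 had TSC11 at 0.03 and DLS1 at 0.06, and ARA1 had CHA4 at 0.02 and RUD3 at 0.04. GRE3 had HNT2 and ALR2, both at 0.03, and YDL124W had MSS2 and PRB1, both at 0.02. YJR096W had BSC4, which was under background on part of the arrays, and SPO1, both at 0.07. ZTA1 had NSE4 at 0.06 and MOH1 at 0.09. GCY1 had the most distant nearest genes of the 9, YNL146C-A at 0.08 and RIF1 at 0.12. Within the 9, the closest pairs were GRE3 and YDL124W at 0.20 and YPR1 and YJR096W at 0.26.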

How the data were processed

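RNA from 4 cultures was measured on Affymetrix yeast arrays, from 6 µg of total RNA per the labels' protocols. The deposited values are log2 RMA signals, 1 for each of 10928 probe sets and array; per the submitters' processing notes they came from RMA in or beside Affymetrix Expression Console, with no version or setting given in the sources used here. Their range, 2.78 to 14.75, fits log2 values. RMA normalizes quantiles between arrays, which takes out part of any shift shared by most transcripts. Scanner files and scan dates were not used here, and probe sequences were not examined; the number of arrays limits the precision.

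Probe sets were named through the platform annotation and the RefSeq table of assembly R64, which gave 1 S. cerevisiae gene for 5498. Groups followed the labels. All 5449 genes were fitted in limma 3.58.1 under R 4.3.3 (lmFit, eBayes, no block, two-sided, Benjamini-Hochberg over all genes). The code was checked on data simulated with independent arrays, which lack the likeness seen here between arrays of different labels. That check does not show how the test performs on these arrays. The labels call the 2 arrays of a group independent experiments and say no more of their origin. Same-numbered arrays did not deviate together (correlation across genes -0.973), so the main fit did not use the numbers as pairs. Differences between same-numbered arrays are given as description only, since the labels do not state a pairing. Named genes were the 9 members, up to 4 of each list at least 2-fold apart inside both labels, YAP1, MSN2, MSN4 and STB5, and the nearest patterns. Members and lists were chosen with earlier results of these data known. From the lists, YMR226C, YIR035C, YKL071W, SOR1, HSP32, HSP33 and GAL4 were not analysed here. Alternatives were a replicate block, an intensity trend, no dim probe sets, quantile normalization anew, array medians subtracted, the mean of probe sets, all probe sets, and leaving out each array.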

Additional observations from a re-analysis of the deposited data

How the results depend on the processing

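No reductase gene and no other gene was called by limma under any of the alternatives run, with array medians subtracted added after seeing the data. With the replicate block, 0 genes of the 5449 and 0 of the 9 were called. No difference of group means changed, which a block balanced over the labels fixes in advance. With a crossed block, chosen after seeing the data, 0 genes were called and the lowest adjusted p in limma was 0.94. Of the 5449 genes, 188 had an unadjusted p in limma under 0.05, fewer than evenly spread p-values would give. Among these were 2 of the 9, GCY1 and ZTA1, which were not called. The crossed block takes the label by number part out of the error, so these low p-values are no support for a difference in either gene. Testing all probe sets gave 0 calls and 9 at an unadjusted p under 0.05; without a block, the other alternatives on 4 arrays gave 0.

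Leaving out each array in turn turned the sign of 6 differences, allyl alcohol minus untreated, while limma called 0 genes each time; an arm left with 1 array was assumed to vary like the other. The ranges were -0.92 to 0.70 for GRE2, -0.16 to 0.12 for GRE3, -0.43 to 0.44 for YPR1, -0.44 to 0.20 for ARA1, -0.44 to 0.71 for ARI1 and -0.68 to 0.32 for YJR096W. They kept their sign for GCY1 (-0.51 to -0.32), ZTA1 (-0.59 to -0.13) and YDL124W (-0.14 to -0.06). The groups of these genes did not overlap in the deposited values, so leaving out 1 array could not turn their sign. GRE2 and ARI1 were the members at least 2-fold apart inside both labels under each scaling run. With array medians subtracted, the difference of GCY1 inside allyl alcohol was 0.015 in place of -0.02. Under the same scaling YDL124W differed by 0.11 inside allyl alcohol, -0.10 inside untreated and -0.09 between group means. Its groups then overlapped. The cause of these shifts was not tested.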

Other observations

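The 18 genes that lie next to a reductase gene in the RefSeq gene order were all measured, and none was itself one of the 9. FMP23, next to ZTA1, differed by -4.78 inside allyl alcohol and 4.83 inside untreated (log2, replicate 2 minus replicate 1), where ZTA1 differed by -0.24 and 0.46. YPT35, next to GRE3, differed by -3.94 and 3.15, where GRE3 differed by 0.19 and -0.27. FRE7 and DCP1, on either side of GRE2, differed by -2.12 and -2.11 inside allyl alcohol and by 2.05 and 1.70 inside untreated, high on the same arrays as GRE2. KEI1, next to YPR1, differed by 1.23 and -1.08, high on the other arrays, where YPR1 differed by -0.87 and 0.81. Of all genes, 18.6% were at least 2-fold apart inside both labels in the arrangement of GRE2 and 15.8% in that of ARI1. The neighbours named here were picked after their values were seen and do not stand for all 18. They compare single arrays with no test.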
